A study of Mus musculus with 8 samples.

Results

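Described here are 10 mouse genes whose products bundle actin filaments or build unbranched ones: the fascin Fscn1, the α-actinins Actn1 and Actn4, the villin Vil1, the formin-like genes Fmnl1, Fmnl2 and Fmnl3, and the diaphanous formins Diaph1, Diaph2 and Diaph3. They were taken by symbol, through their Ensembl identifiers, from the 21517 genes listed in either of the study's expression tables, and all 10 are listed in both. Fscn1 and Fmnl3 were chosen by their values in these same libraries, where earlier results showed Fscn1 higher and Fmnl3 lower in knockdown embryos. Their knockdown differences are therefore given as values without a test. The other 8 genes are their relatives in structure or function.

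The study asked what SMARCA5, also called SNF2H, the motor subunit of ISWI chromatin remodelers, does in early embryos. The libraries used are of polyadenylated RNA from pools of 20 mouse embryos, in 4 groups of 2 libraries. They are NC morulae, Snf2h knockdown (KD) morulae, NC blastocysts and KD blastocysts. The labels give no strain, allele, age or sex for any group, and the knockdown agent and what NC stands for are not given in the sources used here. Whether the paired libraries of a group stem from independent collections of embryos is not stated. Errors and p-values therefore cover only the spread between the 2 libraries of a group, which may be technical. Standard errors and p-values of the model fits combine that spread for a gene with its trend over all tested genes. The values are the authors' normalized abundance, scaled within the table of each stage and not between them. In such pools, fewer cells of a type and less RNA per cell cannot be told apart.

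Formins are dimers that start actin filaments and stay on the growing end while adding profilin-bound actin. Bundlers then tie filaments together. Fascin packs parallel filaments tightly, as in filopodia, α-actinin spaces filaments loosely in contractile bundles and at junctions, and villin bundles and severs filaments in microvilli. In the mouse embryo, cortical actin and myosin drive the compaction of the morula, and actin at the apical surface and junctions accompanies the formation of the trophectoderm, the outer epithelium of the blastocyst.

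The sequences just upstream of Fscn1 and Fmnl3 are shown because these are the genes chosen by their values. RefSeq (GRCm38.p6) gave windows of 250 bases before to 50 after the start for 9 of the 10 genes, and the 250 bases before the start are printed 5′ to 3′ on the strand of the gene. That of Fscn1 lies at chr5:142960105-142960354 on the plus strand, and that of Fmnl3 at chr15:99370483-99370732 on the minus strand. Capitals mark matches, on either strand, to the motifs searched. These were the TATA box, with the letters TATAAA, and the cAMP response element, with the letters TGACGTCA. The GC box was searched as GGGCGG, the motif of nuclear factor Y as CCAAT, and the motif of TEAD factors as GGAATG. The sixth was the CArG box of serum response factor.
Fscn1 promoter: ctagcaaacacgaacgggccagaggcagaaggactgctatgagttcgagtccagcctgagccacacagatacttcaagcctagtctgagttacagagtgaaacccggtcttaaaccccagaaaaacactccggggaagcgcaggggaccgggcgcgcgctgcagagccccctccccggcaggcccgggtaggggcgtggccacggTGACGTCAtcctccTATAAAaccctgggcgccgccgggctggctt
Fmnl3 promoter: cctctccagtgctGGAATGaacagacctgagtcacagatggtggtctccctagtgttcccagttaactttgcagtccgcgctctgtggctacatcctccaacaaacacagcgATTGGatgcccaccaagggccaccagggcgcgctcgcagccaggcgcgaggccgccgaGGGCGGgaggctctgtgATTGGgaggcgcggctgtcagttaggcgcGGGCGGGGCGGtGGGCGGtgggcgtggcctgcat
The Fscn1 window holds TATAAA beginning 31 bases before the start and TGACGTCA beginning 45 bases before it, and none of the other motifs. Among the 9 windows only that of Fscn1 has either of these elements. TATAAA was present in 14.2% and TGACGTCA in 1.88% of 27025 windows of the same length. The Fmnl3 window holds 5 matches to GGGCGG, one of which lies after the start and is not printed, 2 to CCAAT, which appear as ATTGG, and 1 to GGAATG. 2 of the GGGCGG matches overlap by 1 base. GGGCGG is present in 7 of the 9 windows against 35.9% of all windows, CCAAT in 3 of 9 against 37.9%, and GGAATG in 2 of 9, Fmnl3 and Actn4, against 14.6%. The CArG box is present in the Vil1 window alone, against 1.57% of all. GC content is 61.7% in the Fscn1 and 66.7% in the Fmnl3 window, and the median of all windows is 52.7%. A match is a run of letters, and binding was not measured. A link between these motifs and the KD differences was not tested.

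The targeted gene was checked first. Smarca5 (chr8:80698507-80739497, mm10, here and below with GENCODE gene spans) had 9678 and 9760 units in NC morulae and 501 and 470.4 after knockdown. At the blastocyst stage it had 7000 and 8283 units, against 906 and 855 after knockdown. It was 20.0-fold lower in morulae (limma adjusted p = 1.88e-04) and 8.68-fold lower in blastocysts (limma adjusted p = 5.93e-04). Every library thus matched its label as NC or KD. Estimated depth ran from 16177238 to 18568761 reads in morulae and from 13958294 to 23304921 in blastocysts. All 9 trophectoderm markers and all 7 epiblast markers looked at passed the filter on low values at both stages. Of 13 markers of cumulus, granulosa and stromal cells, Fshr, Cyp19a1, Has2 and Dcn were at 0 in all 8 libraries, and 4 passed the filter at each stage. Among these Foxl2 had 38.9 and 28.9 units in NC and 109 and 77.1 in KD morulae, and 16.3 and 25.1 in NC and 63.9 and 42.6 in KD blastocysts, higher in KD without overlap. Amhr2 went the other way in morulae, with 279 and 325 units in NC and 203.5 and 243 in KD, lower without overlap. In blastocysts Amhr2 had 158 and 85.1 in NC and 101 and 72.5 in KD, which overlapped. Inhbb and Col1a1 overlapped at both stages. The 13 markers summed to 366 to 511 units in NC and 472 to 519 in KD morulae, and to 329 to 394 in NC and 256 to 474 in KD blastocysts. Their part in the values of the 10 genes was not tested. Summed blood markers stayed between 20.4 and 29.3 units in morulae and between 21.3 and 184.6 in blastocysts.

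Per kilobase of transcript, Actn4 was the most abundant of the 10 genes in every group. In NC morulae the order of mean levels per kilobase was Actn4 at 6925, Actn1 at 1532, Fscn1 at 583, Diaph1 at 385, Fmnl2 at 233, Fmnl3 at 183, Diaph3 at 177, Diaph2 at 49.7, Fmnl1 at 2.46 and Vil1 at 2.21. The libraries of Fmnl2, Fmnl3 and Diaph3 overlapped, as did those of Fmnl1 and Vil1, so these neighbours cannot be ordered. In NC blastocysts the means per kilobase were 9421 for Actn4, 1566 for Actn1, 1142 for Fscn1, 670.4 for Fmnl2, 541 for Diaph1, 387 for Fmnl3, 284 for Diaph3, 44.6 for Diaph2, 12.5 for Fmnl1 and 0.217 for Vil1, and no neighbours overlapped. The embryos thus carried mostly α-actinin among these bundlers, and hardly any villin. Diaph1 led the formins in NC morulae, and Fmnl2 and then Diaph1 in NC blastocysts. In KD morulae Fscn1, at 1168 units per kilobase, stood level with Actn1 at 1084, with overlapping libraries. In KD blastocysts Actn1 at 1388 and Fscn1 at 1361 again overlapped, and Diaph3 at 244 overlapped Fmnl3 at 199.

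**Figure D1:**
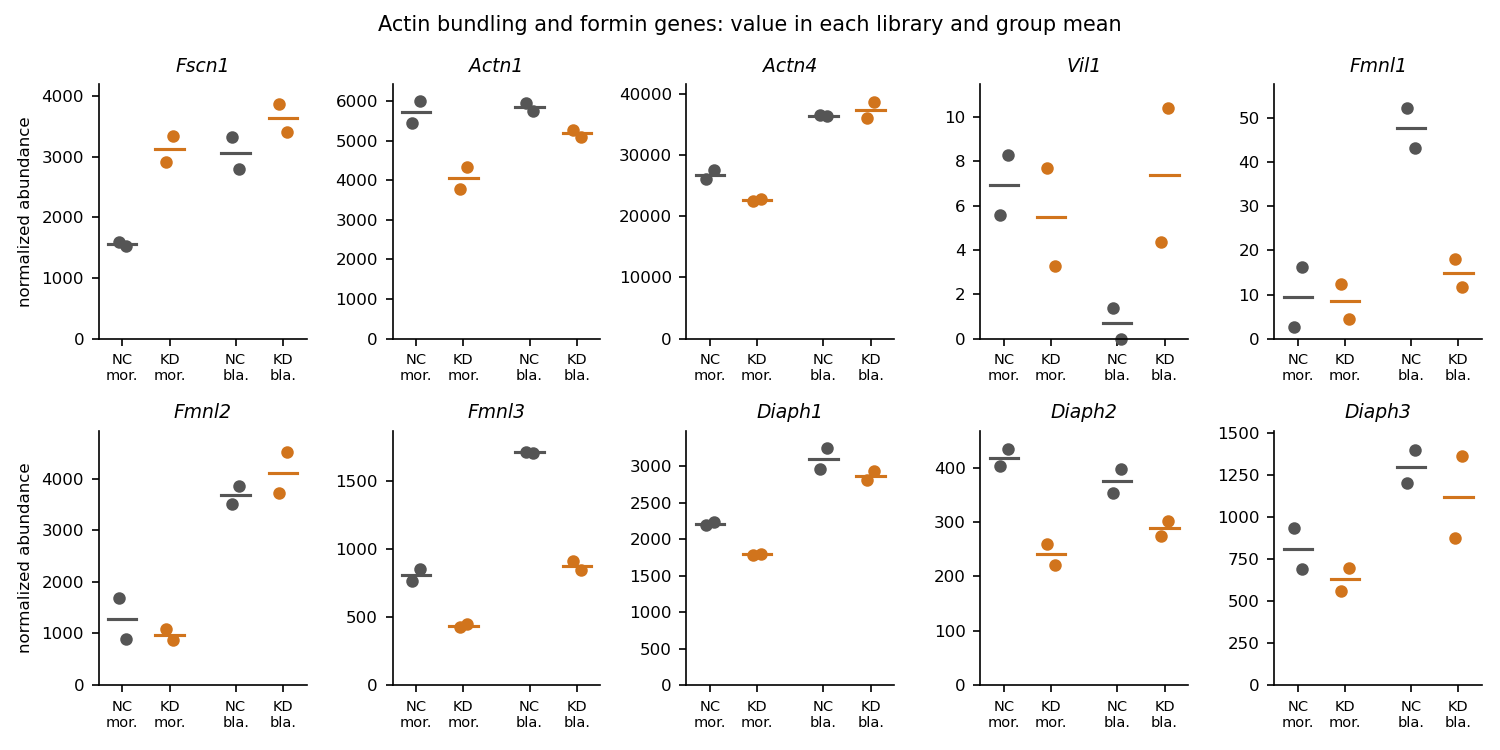
Normalized abundance of the 10 genes (y axis, linear from 0, each panel with its own scale) in NC (grey) and KD (orange) libraries of morulae (mor.) and blastocysts (bla.). Points are single libraries and bars are means of 2. Fscn1 is higher and Fmnl3 lower in KD at both stages, with the KD morulae of Fscn1 at 2906 and 3345 units against 1520 and 1601 in NC. The 2 stages were scaled separately.

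Among the bundlers, Fscn1 was higher in KD than in NC embryos at both stages, by far the more in morulae. Fscn1 (chr5:142960343-142973185, plus strand) had 1601 and 1520 units in NC morulae and 2906 and 3345 in KD morulae. The groups did not overlap, and the lowest KD library was well above the highest NC library. The means were 1561 ± 57.6 and 3125 ± 311 (SD, n = 2 each), a 2.00-fold difference, or 1.0 on the log2(value + 1) scale with a standard error (SE) of 0.14. In blastocysts Fscn1 had 3319 and 2792 units in NC and 3876 and 3407 in KD. Again both KD libraries lay above both NC libraries, but the gap between the nearest of them was narrow. The difference was 1.19-fold, or 0.26 on the log2 scale (SE 0.12), and it was 0.13 without NC replicate 2 and 0.16 without KD replicate 1. Leaving out 1 library at a time gave 0.13 to 0.38 in blastocysts and 0.90 to 1.10 in morulae.

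The α-actinins were lower in KD morulae and closer to NC in blastocysts, and neither passed the test at either stage. Actn1 (chr12:80167547-80260371, minus strand), the isoform of stress fibres and adhesions, had 5445 and 5999 units in NC morulae and 3771 and 4324 in KD morulae. Each KD value was under the lower of the NC values. The log2 difference was -0.50 (SE 0.13, limma adjusted p = 0.362). In blastocysts Actn1 had 5952 and 5740 units in NC and 5277 and 5091 in KD, also without overlap, with a log2 difference of -0.17 (SE 0.08, limma adjusted p = 0.339).

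Actn4 (chr7:28893248-28962340, minus strand), a cytoskeletal α-actinin of epithelia and motile cells, had 26079 and 27614 units in NC morulae and 22507 and 22783 in KD morulae. The KD libraries were close to each other and below both NC libraries. The log2 difference was -0.24 (SE 0.10, limma adjusted p = 0.474). In blastocysts Actn4 had 36671 and 36379.6 units in NC and 36099 and 38811 in KD. Here the groups overlapped, and the log2 difference was 0.04 (SE 0.07, 95% interval -0.14 to 0.21, limma adjusted p = 0.843); with quantile normalization it was -0.10.

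Vil1 (chr1:74409376-74435559, plus strand) was near the floor of the tables. In morulae its values were 5.56 and 8.27 units in NC and 7.69 and 3.26 in KD, and in blastocysts 1.36 and 0 in NC and 4.37 and 10.4 in KD. Its mean missed the minimum of 10 units over the 4 libraries at both stages, so no fold or test is given. Within the bundlers the share of Fscn1, per kilobase, was 6.81% and 6.11% in NC morulae and 13.7% and 15.1% in KD morulae. In blastocysts it was 10.1% and 8.72% in NC and 11.9% and 10.1% in KD. The share in KD morulae was thus above that in every NC library of either stage, while in blastocysts the NC and KD shares overlapped. Because it is a share within each library, a scaling factor common to all genes of a library cancels in it. A factor particular to a gene would not cancel. Fscn1 was chosen for its higher KD values, so its share is a description.

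Among the formin-like genes, Fmnl3 was lower in KD embryos by a similar factor at both stages. Fmnl3 (chr15:99317225-99370482, minus strand), a formin known from filopodia and endothelial cells, had 769.5 and 853 units in NC morulae and 427 and 447 in KD morulae. Both KD libraries held less than either NC library. The means were 811 ± 59.0 and 437 ± 14.3 (SD, n = 2 each), 1.86-fold lower in KD, or -0.89 on the log2 scale (SE 0.17). In blastocysts Fmnl3 had 1717 and 1709.7 units in NC and 916 and 844 in KD. The NC libraries were nearly equal, and both KD libraries held about the same smaller amount. The difference was 1.95-fold, or -0.96 on the log2 scale (SE 0.12). Leaving out 1 library at a time gave -0.96 to -0.82 in morulae and -1.02 to -0.90 in blastocysts.

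Fmnl2 (chr2:52857860-53133804, plus strand), a Cdc42 effector at the leading edge of cells, gave overlapping groups at both stages. In morulae it had 1681 and 889 units in NC and 1094 and 863 in KD. One NC library stood apart from the other 3, and the groups overlapped. The log2 difference was -0.33 (SE 0.31, 95% interval -1.07 to 0.41, limma adjusted p = 0.760), and without NC replicate 1 it turned to 0.13. In blastocysts Fmnl2 had 3517 and 3867 units in NC and 3716 and 4508 in KD, again overlapping. The log2 difference there was 0.15 (SE 0.12, 95% interval -0.14 to 0.44, limma adjusted p = 0.559), and from 0.011 to 0.29 when 1 library at a time was left out.

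Fmnl1 (chr11:103171107-103198901, plus strand), best known from blood cells, was a minor formin in these embryos. Its values were 2.67 and 16.2 units in NC morulae and 12.4 and 4.53 in KD morulae, under the minimum for a test. In blastocysts it had 52.5 and 43.3 units in NC and 18.1 and 11.7 in KD. The groups did not overlap, and KD was 3.21-fold lower on the means. The log2 difference was -1.64 (SE 0.50, 95% interval -2.85 to -0.44), and it did not pass (limma adjusted p = 0.181). The summed blood markers of blastocysts ranged from 25.8 to 184.6 units in NC and from 21.3 to 102.0 in KD, and their part in the Fmnl1 values was not tested.

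Within the formin-like family of blastocysts, Fmnl3 took a smaller and Fmnl2 a larger share in KD than in NC. Fmnl1 held little of the sum, so a smaller share of the chosen Fmnl3 raises that of Fmnl2. The Fmnl2 values themselves overlapped between the groups. Fmnl3 made up 37.3% and 35.1% of the summed level per kilobase of NC blastocysts, against 23.4% and 18.8% in KD. In morulae, where Fmnl2 varied between libraries, the share of Fmnl3 was 36.2% and 53.8% in NC and 32.3% and 39.0% in KD, and the groups overlapped. The ratio of Fscn1 to Fmnl3 per kilobase combines both selected genes. In morulae it was 3.44 and 2.95 in NC against 11.2 and 12.4 in KD, and in blastocysts 3.20 and 2.70 in NC against 6.99 and 6.68 in KD. NC embryos of both stages thus had about the same ratio, and KD embryos a higher one, the more so in morulae.

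**Figure D2:**
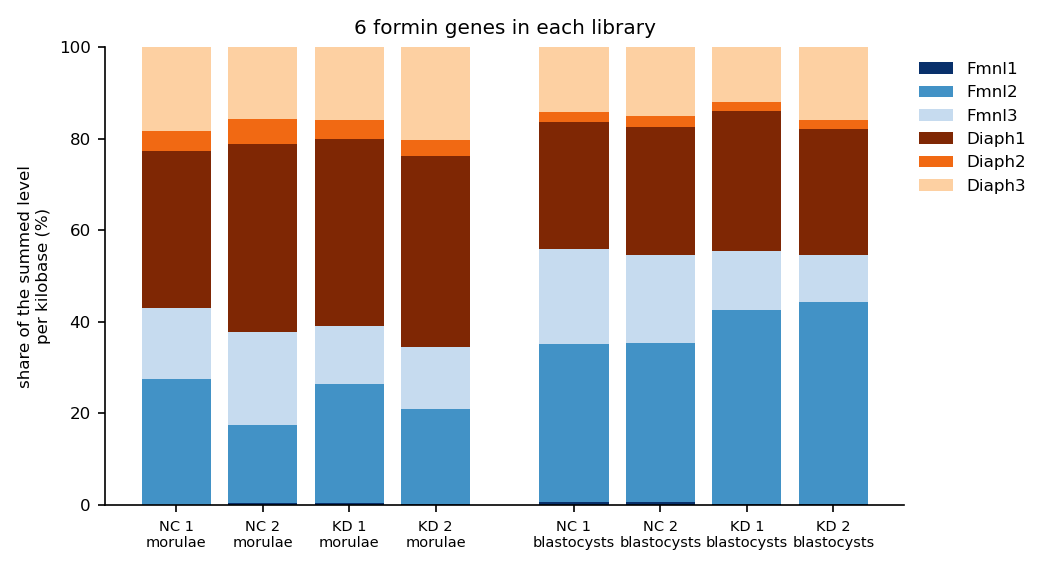
Share of each of 6 formin genes in their summed level per kilobase (y axis, percent) in each of the 8 libraries (x axis). In blastocysts the Fmnl3 segment takes 20.9% and 19.2% in NC and 13.0% and 10.3% in KD, and the Fmnl2 segment 34.3% and 34.8% in NC and 42.2% and 44.1% in KD. Shares divide a fixed whole, so a smaller Fmnl3 segment leaves more to the others.

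Of the diaphanous formins, Diaph1 and Diaph2 had lower values in KD than in NC libraries at both stages, Diaph3 overlapped between the groups, and none passed the test. Diaph1 (chr18:37843601-37935476, minus strand), also called mDia1, had 2194 and 2229.7 units in NC morulae and 1782 and 1803 in KD morulae. The libraries of each group were almost equal, and the groups did not overlap. The log2 difference was -0.30 (SE 0.13, limma adjusted p = 0.481). In blastocysts Diaph1 had 2963 and 3245 units in NC and 2808 and 2935 in KD. The groups were separate but close, with a log2 difference of -0.11 (SE 0.10, 95% interval -0.34 to 0.12, limma adjusted p = 0.599), and from -0.18 to -0.045 when 1 library at a time was left out.

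Diaph2 (chrX:129749742-130465834, plus strand), the least abundant diaphanous formin here, had 403 and 435 units in NC morulae and 260.2 and 222 in KD morulae. After Fmnl3 it showed the largest difference downwards among the members tested in morulae. The log2 difference was -0.80 (SE 0.22, 95% interval -1.32 to -0.28, limma adjusted p = 0.377). In blastocysts Diaph2 had 355 and 399 units in NC and 274 and 303 in KD, likewise without overlap, with a log2 difference of -0.38 (SE 0.18, limma adjusted p = 0.341).

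Diaph3 (chr14:86655367-87141235, minus strand), the formin mDia2 of filopodia and the cytokinetic ring, had 935 and 688 units in NC morulae and 560 and 697 in KD morulae. In blastocysts it had 1202 and 1398 units in NC and 875 and 1361 in KD. The groups overlapped at both stages. The log2 differences were -0.36 (SE 0.22, limma adjusted p = 0.625) and -0.25 (SE 0.21, limma adjusted p = 0.593), and that of blastocysts turned to 0.07 without KD replicate 1. In morulae it ran from -0.58 to -0.14 when 1 library at a time was left out. The 6 formins together summed to 1114 and 948 units per kilobase in NC morulae and 762 and 751 in KD morulae, and to 1861 and 2018 in NC and 1599 and 1856 in KD blastocysts. The sum in KD morulae was thus below both NC libraries, and in blastocysts 1 KD library nearly reached the lower NC library.

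**Figure D3:**
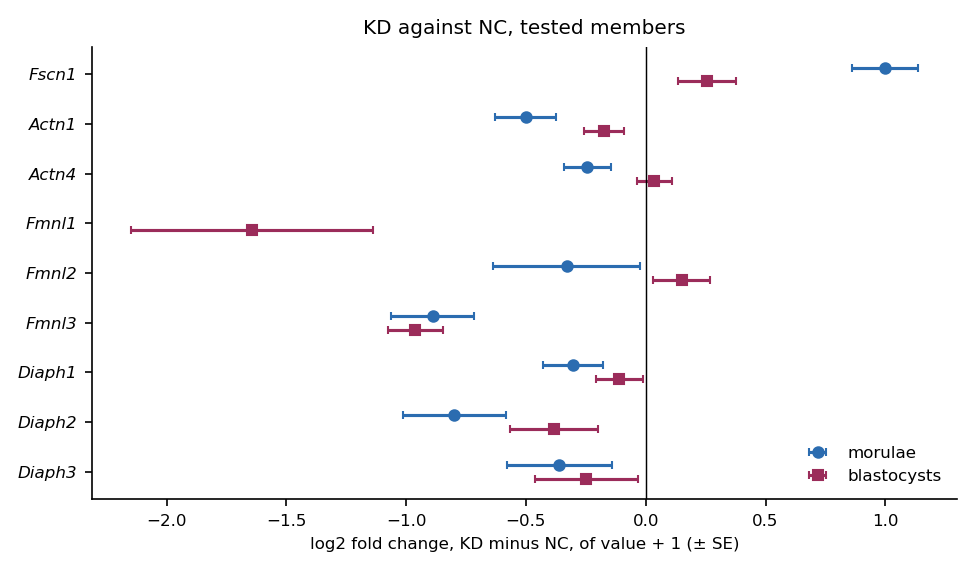
Log2 fold change of KD minus NC, on the log2(value + 1) scale (x axis), for each tested member (y axis) in morulae (circles) and blastocysts (squares). Bars are the limma SE, with 2 libraries a group. Fscn1 lies to the right of 0 at both stages, at 1.0 and 0.26, and Fmnl3 to the left, at -0.89 and -0.96. Vil1 was under the filter at both stages and Fmnl1 in morulae.

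Over all members, 8 passed the filter in morulae and 9 in blastocysts. Of the 6 and 7 of these other than Fscn1 and Fmnl3, 0 passed the limma test at either stage. At an unadjusted p under 0.05 there were 4 in morulae and 1 in blastocysts, where 10.4% and 17.6% of all tested genes reached it, so the count in blastocysts is near the background. The test called 0.00746% of 13404 genes in morulae, which is Smarca5 alone, and 0.0879% of 13651 in blastocysts, or 12 genes, and 1 to 3 genes there when 1 library at a time was left out. In morulae the KD libraries lay below the NC libraries for 5 members and above them for 1, against 21.2% and 20.7% of all tested genes. In blastocysts the counts were again 5 and 1, against 24.9% and 24.6%. The median log2 difference of the members was -0.35 in morulae and -0.17 in blastocysts, beside -0.0067 and 0.0017 over all tested genes. These counts include the pair chosen for its difference and are a description.

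The KD difference was then compared between stages in a limma fit of all 8 libraries, as that in blastocysts minus that in morulae. Of the 6 members that could be tested, 0 passed, with limma adjusted p from 0.911 to 0.972, and the fit called 0% of 12875 genes. Unadjusted p under 0.05 was reached by 687 of all genes and by 1 member, Actn4. The log2 difference between stages was 0.28 for Actn4 (SE 0.12), 0.33 for Actn1 (SE 0.15), 0.42 for Diaph2 (SE 0.27), 0.19 for Diaph1 (SE 0.14), 0.48 for Fmnl2 (SE 0.38) and 0.11 for Diaph3 (SE 0.34). In all 6 the KD difference was thus higher in blastocysts than in morulae, although that of Diaph3 changed sign when some single libraries were left out. For the selected pair it was -0.74 for Fscn1 (SE 0.18) and -0.07 for Fmnl3 (SE 0.18), given without a test.

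Levels in NC embryos of both stages stand in tables scaled apart and were not tested against each other. The ratio of the NC blastocyst mean to the NC morula mean was 2.87 for Fmnl2, 2.11 for Fmnl3, 1.96 for Fscn1, 1.60 for Diaph3, 1.40 for Diaph1, 1.36 for Actn4, 1.02 for Actn1 and 0.899 for Diaph2. The log2 ratio of all 12875 genes tested in both tables had a median of 0.22. Both formin-like genes and Fscn1 lay in the upper part of that range, at its 93.2nd, 86.4th and 83.9th percentiles in the order Fmnl2, Fmnl3 and Fscn1, while Actn1 and Diaph2 lay in its lower part. In KD embryos the same ratio was 1.17 for Fscn1 and 2.01 for Fmnl3.

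Markers of the embryo's own cell types also differed between the groups. In morulae 4 of 9 trophectoderm markers were lower in both KD libraries than in both NC libraries and 0 were higher, with summed levels of 32844 to 35966 in NC and 30129.6 to 31604 in KD. In blastocysts 5 of 9 were higher without overlap and 0 lower, with sums of 90955 to 91581 in NC and 102221 to 115970.0 in KD. Epiblast markers in blastocysts were lower without overlap for 6 of 7, with sums of 34615 to 38812 in NC and 31032 to 32441 in KD, against 1 of 7 in morulae. Primitive endoderm markers were higher without overlap for 4 of 8 tested in morulae and 3 of 9 in blastocysts. Of all tested genes, 21.2% lay lower and 20.7% higher in KD without overlap in morulae, and 24.9% and 24.6% in blastocysts. The primitive endoderm count in blastocysts is near that share. Of 24 and 25 such lineage markers tested, 0 passed limma's test, and 6 in morulae and 12 in blastocysts reached an unadjusted p under 0.05, against 10.4% and 17.6% of all tested genes. Krt8 and Krt18, the keratins of the trophectoderm, thus stood with Actn1, Actn4, Diaph1 and Diaph2 in morulae, all lower in KD, but not in blastocysts, where Krt8 had 39192 and 38809 units in NC and 43299.5 and 49475 in KD. The part of cell type makeup in the values of the 10 genes was not tested.

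The wider actin machinery was looked at through 10 lists with 165 further genes, of which 146 passed the filter in morulae and 152 in blastocysts. By limma 0 of them passed at either stage, and 26 and 30 reached an unadjusted p under 0.05, or 17.8% and 19.7%, as did 1391 and 2398 of all tested genes, or 10.4% and 17.6%. In morulae 26 lay higher and 39 lower in KD without overlap, 17.8% and 26.7% of those tested against 20.7% and 21.2% of all genes, with a median log2 difference of -0.05. In blastocysts 46 lay higher and 25 lower, 30.3% and 16.4% against 24.6% and 24.9%, with a median of 0.06. Genes named below are the pair with the smallest p at each stage in 9 of the lists, whether or not they passed.

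Among the other formins, 5 of 9 were tested in morulae and 7 in blastocysts. Grid2ip, a formin of Purkinje cell synapses, had 7.81 and 15.2 units in NC and 39.1 and 33.1 in KD morulae (log2 difference 1.63, limma adjusted p = 0.464). Fhod1 had 361 and 279.6 against 411 and 402 (log2 difference 0.35, limma adjusted p = 0.633). In blastocysts Inf2, which also severs filaments, had 1355 and 1162 in NC and 1027 and 877 in KD (log2 difference -0.40, limma adjusted p = 0.224), and Daam1, of planar cell polarity signalling, 1295 and 1523 against 1203 and 1081 (log2 difference -0.30, limma adjusted p = 0.307). The family thus held values in both directions, and none passed.

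Among 27 other bundling and crosslinking genes, 5 lay higher and 3 lower without overlap of 21 tested in morulae, and 8 higher and 6 lower of 24 in blastocysts. The shares of all tested genes were 20.7% higher and 21.2% lower in morulae, and 24.6% and 24.9% in blastocysts. Espn, the parallel bundler espin, had 82.0 and 99.0 units in NC and 169 and 218 in KD morulae, the same direction as Fscn1 (log2 difference 1.08, limma adjusted p = 0.386). Tagln2 had 3392 and 3539 against 2401 and 2737 (log2 difference -0.43, limma adjusted p = 0.402). In blastocysts the crosslinker filamin A gene Flna had 1763 and 1628 in NC and 2480.3 and 2243 in KD (log2 difference 0.48, limma adjusted p = 0.121). Marcks, a membrane-bound crosslinker, had 4903 and 6159 against 8160 and 8635 (log2 difference 0.61, limma adjusted p = 0.101).

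In the villin and gelsolin family all 7 genes were tested, and the same pair led at both stages. Avil, advillin, had 64.7 and 74.9 units in NC and 191 and 187 in KD morulae, and 66.7 and 50.6 in NC and 437 and 199 in KD blastocysts. The log2 differences were 1.43 (limma adjusted p = 0.362) and 2.32 (limma adjusted p = 0.0908). Svil, supervillin, had 287 and 129 in NC and 94.98 and 66.6 in KD morulae, and 470.2 and 472 in NC and 264 and 248 in KD blastocysts. Its log2 differences were -1.27 (limma adjusted p = 0.436) and -0.88 (limma adjusted p = 0.09999). Advillin was thus higher and supervillin lower in both KD libraries of both stages.

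The list of the Arp2/3 complex, which builds branched filaments, and its activators and regulators had 24 of 25 genes tested at each stage. Without overlap, 5 lay higher and 5 lower in morulae, against 20.7% and 21.2% of all tested genes. In blastocysts 10 lay higher and 5 lower, against 24.6% and 24.9% of all tested genes. Arpc1b, which encodes a subunit of the complex, had 4631 and 4565 units in NC and 3724 and 3327 in KD morulae, and 7715 and 8071 against 6231 and 6526 in blastocysts. The log2 differences were -0.39 (limma adjusted p = 0.403) and -0.31 (limma adjusted p = 0.147). Was, an activator known from blood cells, had 10.8 and 11.1 in NC and 41.3 and 54.0 in KD morulae (log2 difference 2.01, limma adjusted p = 0.377). Abi2 of the WAVE complex had 121 and 285 in NC and 67.0 and 68.0 in KD blastocysts (log2 difference -1.45, limma adjusted p = 0.173).

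Among the monomer-binding genes in morulae, Tmsb10, a thymosin that holds actin monomers, had 3783 and 3607 units in NC and 2763 and 2544 in KD (log2 difference -0.48, limma adjusted p = 0.362). Cfl2, a cofilin, had 1229 and 1404 against 906 and 868 (log2 difference -0.57, limma adjusted p = 0.377). In blastocysts none of the 16 tested genes of this list reached an unadjusted p under 0.05, against 17.6% of all tested genes. The leading pair there, Tmsb4x and Twf1, overlapped between groups. In the capping and tropomyosin list, Enah, which protects growing ends, had 15834 and 16587 in NC and 13113 and 13961 in KD morulae (log2 difference -0.26, limma adjusted p = 0.474), and Carmil1, a regulator of capping protein, 721 and 693 against 612 and 474 (log2 difference -0.39, limma adjusted p = 0.556). In blastocysts the spectrin-binding capper Add1 had 4119.8 and 4333 in NC and 4929 and 5179.9 in KD (log2 difference 0.26, limma adjusted p = 0.209). Lmod1 had 12.2 and 2.43 against 53.4 and 14.5, a low and scattered value (log2 difference 2.11, limma adjusted p = 0.312).

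Of 13 tested genes for non-muscle myosin and its control, 0 lay higher and 5 lower without overlap in morulae, and 2 higher and 1 lower in blastocysts. Beside these stand 20.7% higher and 21.2% lower of all tested genes in morulae, and 24.6% and 24.9% in blastocysts. Rock2, a kinase that activates myosin, had 1870.2 and 2110.2 units in NC and 1186 and 1335 in KD morulae (log2 difference -0.66, limma adjusted p = 0.362). Anln, the contractile ring protein anillin, had 4003 and 3833 against 2696 and 3172 (log2 difference -0.42, limma adjusted p = 0.403). In blastocysts Cit, the citron kinase, had 1125 and 1259.8 in NC and 1695 and 1703 in KD (log2 difference 0.51, limma adjusted p = 0.116). Ppp1cb, a phosphatase subunit that acts on myosin, had 4916 and 4610.5 against 3910.4 and 4082 (log2 difference -0.25, limma adjusted p = 0.221).

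The list of microvilli and the apical membrane held the smallest adjusted p of the 10 lists. Rdx, radixin, which links actin to the membrane, had 2319 and 2718 units in NC and 1298 and 1331 in KD blastocysts (log2 difference -0.93, limma adjusted p = 0.0593). Its relative Ezr, ezrin, had 3891 and 6304 against 2127 and 2911 (log2 difference -0.99, limma adjusted p = 0.127). In morulae the list was led by Myo1d at 249 and 234 in NC and 162 and 128 in KD (log2 difference -0.74, limma adjusted p = 0.436) and Podxl at 35.3 and 16.5 against 7.69 and 8.67 (log2 difference -1.46, limma adjusted p = 0.550). All 4 were lower in KD without overlap at the stage given, and none passed. At the other stage each of them overlapped between the groups.

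The last list holds the actin-regulated cofactors of serum response factor and its targets. Zyx, the adhesion protein zyxin, had 781 and 742 units in NC and 1382 and 1224 in KD morulae, and 1834 and 1735 in NC and 2572 and 2412 in KD blastocysts. The log2 differences were 0.77 (limma adjusted p = 0.362) and 0.48 (limma adjusted p = 0.110). Mrtfb, a cofactor held back by actin monomers, had 154 and 188 in NC and 105 and 101 in KD morulae (log2 difference -0.72, limma adjusted p = 0.476). Cnn2, a calponin, had 1860.4 and 1438 in NC and 2249 and 2382 in KD blastocysts (log2 difference 0.50, limma adjusted p = 0.164).

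**Figure D4:**
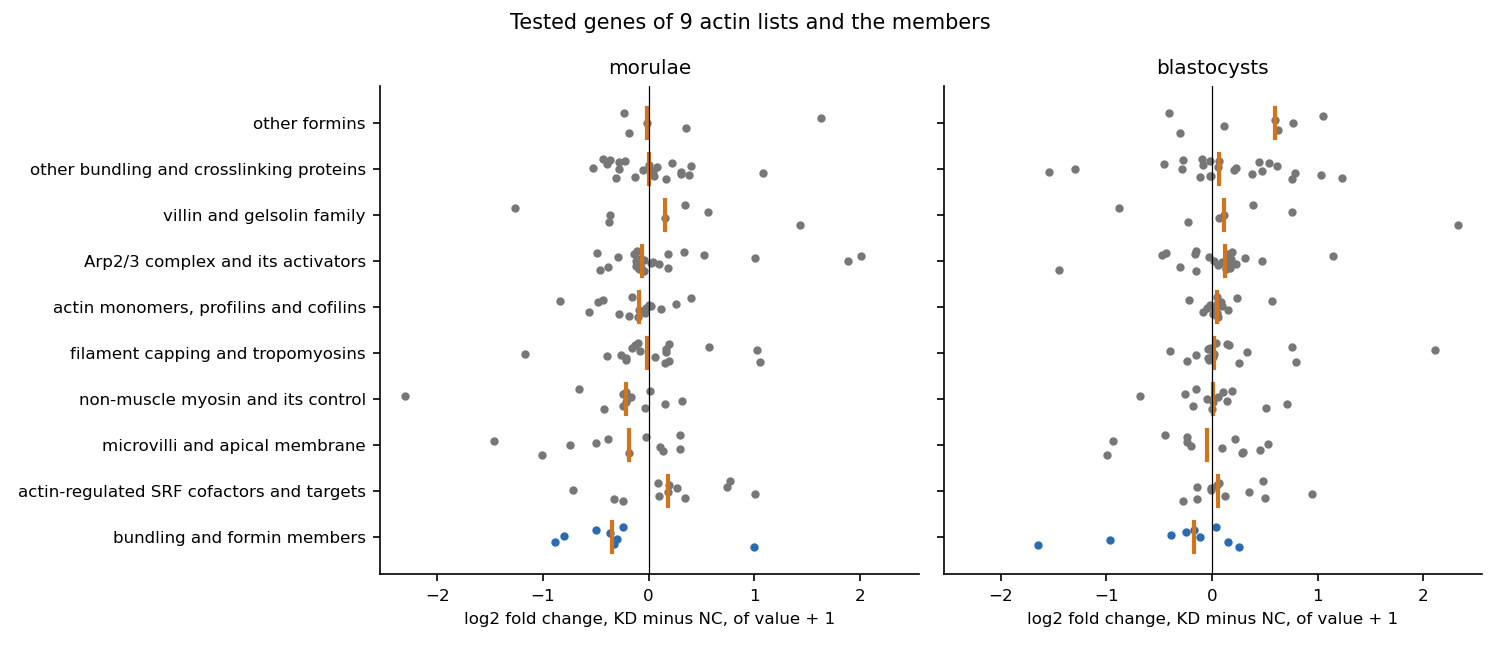
Log2 fold change of KD minus NC, on the log2(value + 1) scale (x axis), for every tested gene of 9 actin lists (grey points, 1 row a list) and for the tested members (blue points), in morulae (left) and blastocysts (right). Orange bars are medians of a row, at -0.35 and -0.17 for the members, and heights within a row only separate points.

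The genes most like Fscn1 and Fmnl3 were ranked by Pearson's r of log2(value + 1) over the 8 libraries, each gene centred within its table, among 12874 genes. The libraries share the division into KD and NC, which sets most of such a correlation, and r is a description. For Fscn1 they were Sh3bp5 (r = 0.988), Tmem63a (0.980), Ltk (0.979), Zfat (0.978) and Eif4g3 (0.978). Ltk, a receptor tyrosine kinase, went furthest, from 3.04 and 2.71 units in NC morulae to 37.0 and 36.9 in KD morulae, with 25.6 and 19.2 in NC and 36.9 and 36.3 in KD blastocysts. Like Fscn1, it differed more in morulae than in blastocysts. For Fmnl3 they were Aes (r = 0.994), Gng12 (0.994), Zmat5 (0.991), Zfp593 (0.988) and Sugt1 (0.988). Gng12, a G protein γ subunit, had 527 and 577 units in NC and 141 and 184 in KD morulae, and 810.4 and 905 in NC and 279 and 244 in KD blastocysts. Aes, a corepressor of the Groucho family, had 709 and 715 in NC and 222 and 275 in KD morulae, and 1015 and 1122 against 364 and 303 in blastocysts. Both therefore had a larger difference than Fmnl3 itself at both stages. Against Fscn1, r was -0.980 for Diaph2 and -0.975 for Diaph1, and against Fmnl3 it was 0.886 for Diaph2 and 0.050 for Fmnl2.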

How the data were processed

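RNA of 8 mouse embryo pools was measured, in 4 groups of 2 named by the sample titles. Per the labels' protocols, PicoPure extracts were selected on oligo(dT) beads and turned into NEBNext Ultra libraries with 12 to 15 PCR cycles. The values are a normalized signal per gene that the authors deposited, with a separate table for morulae and blastocysts. The submitters' processing notes list Salmon 0.14.1, DESeq2 and mm10, without saying what each tool was for. Column sums are nearly equal within a table (17151880 to 17823304 in morulae, 18896774 to 19247880 in blastocysts), so tables were scaled apart. Depth was estimated from the step between low values. Whole reads could not be recovered, so no count test was run. SDs are the spread between the libraries of a group, and each limma SE is moderated towards a trend over all tested genes.

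Symbols and positions come from GENCODE vM21, which matched 98.9% of identifiers in each table. Genes with a mean of at least 10 over the 4 libraries of a table entered, on the log2(value + 1) scale, a limma 3.58.1 fit under R 4.3.3 (lmFit, eBayes with trend), two-sided, with Benjamini-Hochberg adjustment over all tested genes and a threshold of 0.05. This scale understates the change of low genes. Log2 differences and their SE come from that fit, folds from group means. A permutation test of 2 against 2 libraries cannot go under 0.333, so none was run. Levels per kilobase divide by the longest coding transcript. The 10 genes and the gene lists were chosen with earlier results of these data known. Named beside them are, by rule, the 2 tested genes with the smallest p in each of 10 lists and stage (those of 1 list are not reported here), the 5 genes most correlated with Fscn1 and with Fmnl3, and lineage markers. Markers were given for 6 lists. Those of the oviduct and uterine epithelium were higher without overlap for 2 of 4 tested genes at each stage. These were Muc1 and Cd24a in morulae, and Muc1 and Epcam in blastocysts. Ovgp1 overlapped at both stages, as did Epcam in morulae and Cd24a in blastocysts. Of all tested genes, 20.7% were higher without overlap in morulae and 24.6% in blastocysts. Alternatives were other pseudocounts, filters and normalizations, no trend, each library left out, a replicate block and merged exon length.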

Additional observations from a re-analysis of the deposited data

How the results depend on the processing

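With 2 libraries a group, 1 library can decide a value, as for Fscn1 in blastocysts, Fmnl2 and Diaph3, and depth gives no interval for single values. Of the log2 differences of the members, 331 alternative values were computed, and 7 changed sign. They were Fmnl2 in morulae without NC replicate 1 (0.13, range -0.79 to 0.13 over the libraries left out in turn), Diaph3 in blastocysts without KD replicate 1 (0.0707, range -0.57 to 0.0707), Actn4 in blastocysts with quantile normalization (-0.10) and without KD replicate 2 (-0.0169, range -0.0169 to 0.0876), and the stage difference of Diaph3 (-0.11, -0.045 and -0.21 without NC replicate 1 of morulae, KD replicate 1 of morulae and KD replicate 2 of blastocysts, range -0.21 to 0.43). Of 476 alternative values for the named genes of the 10 lists, 0 changed sign. These genes were picked by smallest p in the same libraries, which favours a kept sign, so this count does not measure robustness. Without the mean-variance trend limma called 0 genes at either stage. In blastocysts, where 12 genes were called, no filter on low values gave 27, and leaving out 1 library gave 1 to 3. With the length of all merged exons, Fscn1 and Actn1 exchanged ranks 2 and 3 in KD blastocysts, and Vil1 and Fmnl1 ranks 9 and 10 in NC morulae. The cause of these changes was not tested.

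The libraries of both groups carry replicate numbers 1 and 2, which nothing in the labels ties to a shared litter or day. The differences between replicates correlated between NC and KD at 0.297 in morulae and 0.146 in blastocysts, from 2 pairs each. A limma fit with the replicate number as a block called 892 genes in morulae and 1208 in blastocysts, that is 6.66% and 8.85% of those tested. Among the members other than Fscn1 and Fmnl3 it called 2 of 6 in morulae, Actn1 (limma adjusted p = 0.00739) and Diaph2 (limma adjusted p = 0.0293), and 0 of 7 in blastocysts. Of the genes in the 10 lists it called 15 in morulae and 21 in blastocysts.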

Other observations

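In ratios between relatives within a library, a scaling factor common to all genes of that library cancels, but a factor particular to a gene does not. Per kilobase, the ratio of Actn1 to Actn4 was 0.217 and 0.226 in NC morulae and 0.174 and 0.197 in KD morulae, and 0.168 and 0.164 in NC and 0.152 and 0.136 in KD blastocysts. At both stages the KD libraries lay below the NC libraries. The ratio of Diaph2 to Diaph1 was 0.125 and 0.133 in NC and 0.0993 and 0.0837 in KD morulae, and 0.0814 and 0.0836 in NC and 0.0665 and 0.0701 in KD blastocysts, again lower in KD without overlap. The ratio of Diaph3 to Diaph1 overlapped between the groups at both stages, at 0.534 and 0.386 in NC and 0.393 and 0.484 in KD morulae, and 0.508 and 0.540 in NC and 0.391 and 0.581 in KD blastocysts. These ratios were computed from the same libraries as the differences above and were not tested.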
